A study of Homo sapiens with 6 samples.

Results

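The genes described here are 10 members of the Notch signalling pathway in SU-DHL-8 cells: the coactivators MAML1, MAML2 and MAML3, the receptors NOTCH1 and NOTCH2, the DNA-binding factor RBPJ, the corepressor SPEN, the protease subunit NCSTN and the targets DTX1 and HES1. They were taken from a deposited table of 65746 genes by their symbols, and all 10 were found there. SU-DHL-8 is an established human line of diffuse large B-cell lymphoma, labelled wild type. The treated group received 15 µM beta-sitosterol, a plant sterol, for 24 h, and the other group received the solvent DMSO for the same 24 h. Each group had 3 libraries, all from this 1 line kept in serum-containing medium, so no second line or donor was compared. MAML2 was picked because its fall was among the largest in this same comparison, and the other members were added as its pathway with earlier results known. The differences of the members between the groups are therefore given as a description, without p-values.

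Notch receptors are cut after binding a ligand on a neighbouring cell, last of all by gamma-secretase, of which nicastrin (NCSTN) is a subunit. The freed intracellular part moves to the nucleus, binds RBPJ on DNA and recruits a Mastermind-like (MAML) coactivator, which brings in the acetyltransferases EP300 and CREBBP. Without it, RBPJ is held silent by corepressors such as SPEN. HES1, a repressor of transcription, and DTX1, a ubiquitin ligase regulator of Notch, are textbook targets, and in mature B cells NOTCH2 is known for its part in marginal zone development. NOTCH1, NOTCH2, SPEN and DTX1 are all recurrently mutated in B-cell lymphomas, and MAML2 is best known as a fusion partner in salivary gland carcinoma.

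Levels are CPM, read counts per gene scaled to a common library total with TMM factors. Library totals were 26453281 to 29360142 counts with beta-sitosterol and 31314446 to 35565620 with DMSO. DMSO replicate 2 stood apart from the other DMSO libraries, its log2 CPM correlating with theirs at 0.982 and 0.972 across genes, while treated libraries correlated at 0.994 with each other. Summed over 5 B-cell markers (MS4A1, CD79A, CD79B, PAX5 and CD22), levels were 1946 to 2097 CPM in treated libraries and 1615 to 2178 CPM in DMSO libraries. Within that sum MS4A1 and CD79A were higher with beta-sitosterol (log2 fold changes 2.23 and 1.05, edgeR adjusted p = 1.11e-04 and 5.35e-04) and PAX5 was lower (-1.67, edgeR adjusted p = 8.07e-05), while CD79B and CD22 did not pass. Summed over 5 T-cell markers they were at most 0.272 CPM in treated and 0.125 CPM in DMSO libraries, with CD3E, CD3G and CD2 at 0 in each library. The 4 myeloid markers summed to 6.35 to 8.40 CPM in treated and 4.61 to 7.04 CPM in DMSO libraries, and the 3 stromal markers to 0.530 to 1.13 CPM in treated and 0.0587 to 0.125 CPM in DMSO libraries. COL1A1 was at 0 in the DMSO libraries. The part of these markers in the results below was not tested. In such bulk samples, fewer cells with a transcript and less of it per cell cannot be told apart.

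Since RBPJ binds DNA at the core motif TGGGAA, the 250 bases before each annotated start site were searched for it on both strands. RefSeq windows (GRCh38.p14) were available for 9 of the 10 members, 13 windows in all, and not for DTX1. HES1 and 1 of the RBPJ windows held the motif, each at 2 places, and the other 7 members with a window held none. Among all 35116 promoter windows in the RefSeq table, 20.8% held it at least once and 2.9% at least 2 times. These 2 windows are shown because they are the members' windows with the motif, in capitals (TTCCCA where it lies on the reverse strand). HES1 is chr3:194135898-194136147, plus strand, and RBPJ is chr4:26319496-26319745, plus strand.
HES1: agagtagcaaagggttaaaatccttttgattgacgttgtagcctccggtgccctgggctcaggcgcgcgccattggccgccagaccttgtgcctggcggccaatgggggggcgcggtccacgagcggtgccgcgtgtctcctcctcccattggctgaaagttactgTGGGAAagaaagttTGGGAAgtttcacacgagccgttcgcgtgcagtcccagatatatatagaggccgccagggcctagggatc
RBPJ: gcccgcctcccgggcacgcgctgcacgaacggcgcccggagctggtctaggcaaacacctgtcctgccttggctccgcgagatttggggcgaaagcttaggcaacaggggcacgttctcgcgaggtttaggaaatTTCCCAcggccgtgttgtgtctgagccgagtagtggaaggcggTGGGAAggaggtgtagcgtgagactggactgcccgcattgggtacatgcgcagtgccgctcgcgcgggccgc
In HES1 the motifs span positions -84 to -79 and -70 to -65 relative to the start site, both on the gene's strand. In RBPJ they span -115 to -110 on the opposite strand and -72 to -67 on the gene's strand. Only the spelling TGGGAA was searched, so other forms of the site were not looked for. A match is a run of letters and was not tested as a binding site here.

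Of the 10 members, 8 passed the filter on low counts and 2, MAML3 and HES1, did not. MAML1, MAML2, NOTCH1, NOTCH2, SPEN and DTX1 passed the edgeR threshold, an adjusted p of 0.05 over all 11525 genes tested, all of them lower with beta-sitosterol. RBPJ and NCSTN did not pass. Over all tested genes, 40.8% passed, 19.0% as higher and 21.8% as lower, and as the same comparison chose the members, nothing is read from their count beside that background. The median log2 fold change of the 8 tested members was -0.68, and that of all tested genes was -0.039. The 3 treated values lay wholly below the 3 DMSO values for the 6 members that passed, and nothing is read from this either: groups did not overlap for 56.1% of all tested genes, and for 29.1% with the treated values below.

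**Figure D1:**
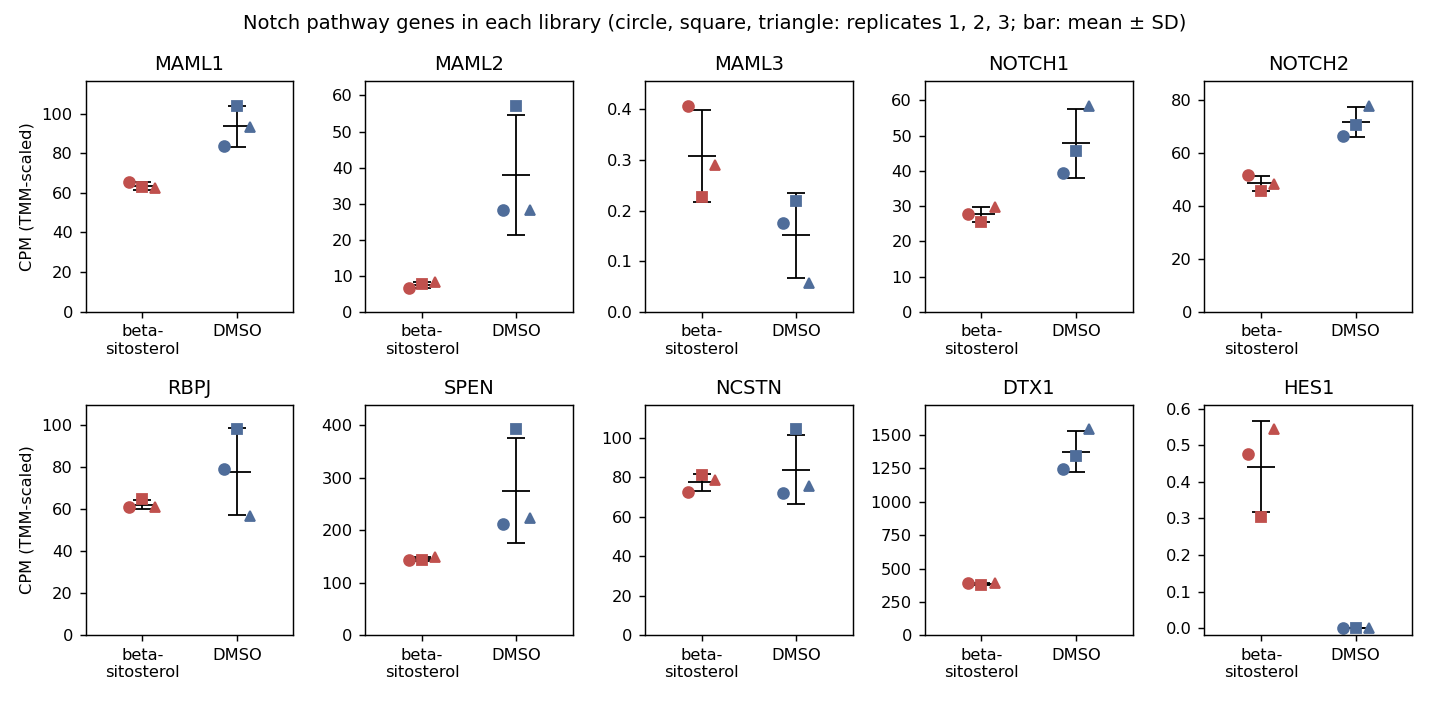
Each panel plots 1 member, with CPM on the vertical axis and the 3 beta-sitosterol libraries left of the 3 DMSO libraries; symbols mark replicate numbers and bars the mean ± SD. Treated libraries sit below DMSO libraries for MAML1, MAML2, NOTCH1, NOTCH2, SPEN and DTX1, overlap them for RBPJ and NCSTN, and DMSO replicate 2 is the highest point for MAML1, MAML2, RBPJ, SPEN and NCSTN.

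The Mastermind coactivators moved unequally. MAML2 (ENSG00000184384, chromosome 11, 95976598 to 96343195) stood at 6.59, 7.72 and 8.25 CPM in treated replicates 1, 2 and 3, against 28.3, 57.2 and 28.1 CPM in DMSO replicates 1, 2 and 3. Each treated library lay below each DMSO library, and DMSO replicate 2 lay far above the other DMSO libraries. The means were 7.52 ± 0.85 CPM with beta-sitosterol and 37.9 ± 16.7 CPM with DMSO (SD, n = 3 each), resting on 625 and 3761 summed counts. The log2 fold change was -2.33 ± 0.29 (SE), a 5.03-fold lower level. Without DMSO replicate 2 it was -1.91. MAML1 (ENSG00000161021, chromosome 5, 179732822 to 179777283), the most abundant of the family per length, stood at 65.6, 62.7 and 62.2 CPM in treated libraries and at 83.5, 103.9 and 93.3 CPM in DMSO libraries. The groups did not overlap, and its log2 fold change was -0.56 ± 0.12. MAML3 (ENSG00000196782, chromosome 4, 139716753 to 140154184) was close to the limit of detection, with 12, 6 and 8 counts in treated libraries and 6, 7 and 2 counts in DMSO libraries. At this depth the ratio of its summed, library-scaled counts, 2.09 in favour of beta-sitosterol, had a 95% exact counting interval of 1.07 to 4.25, which leaves out the spread between libraries.

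Shares within the family do not depend on how a library was scaled as a whole. In TPM (counts divided by gene length and library, deposited by the authors), MAML2 made up 6.38%, 7.73% and 8.28% of the summed MAML transcripts in treated replicates 1, 2 and 3. In DMSO replicates 1, 2 and 3 the share was 18.8%, 27.3% and 17.1%. MAML1 made up 92.2% ± 0.90 with beta-sitosterol and 78.9% ± 5.49 with DMSO (SD, n = 3 each). MAML3 was below 1% in each library, at 0.380% ± 0.105 with beta-sitosterol and 0.107% ± 0.0550 with DMSO.

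**Figure D2:**
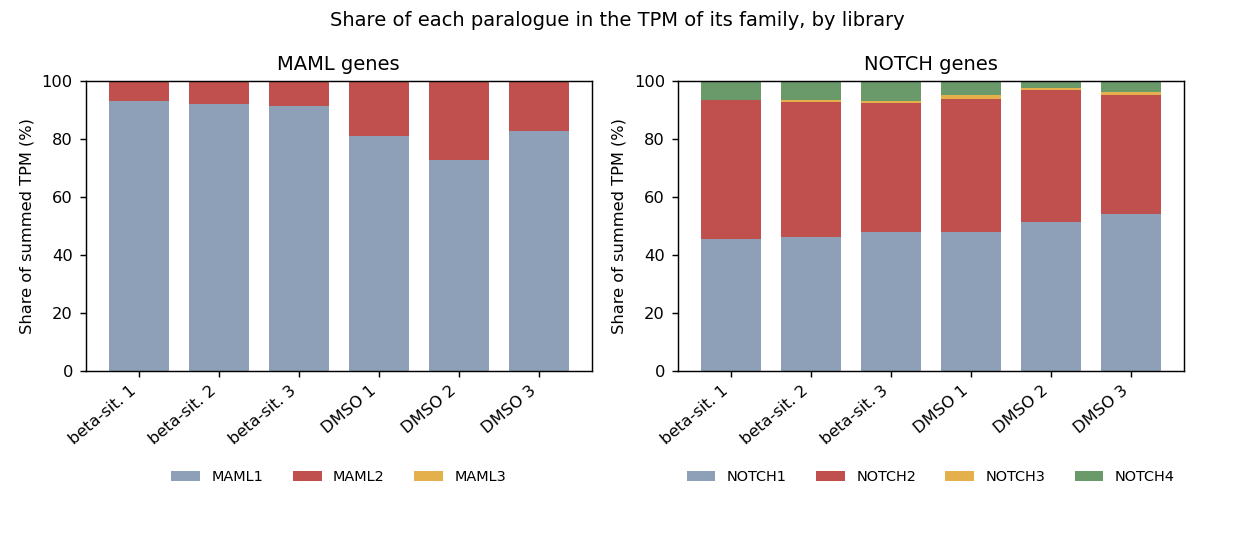
Stacked bars give the percentage of the summed TPM of the MAML genes (left) and of the 4 NOTCH genes (right) held by each gene, 1 bar a library, beta-sitosterol libraries left of DMSO libraries. MAML2 holds 6.38% to 8.28% in treated and 17.1% to 27.3% in DMSO libraries, and NOTCH1 holds 45.3% to 48.0% of its family in treated and 47.9% to 54.1% in DMSO libraries.

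Both receptors were lower with beta-sitosterol. NOTCH1 (ENSG00000148400, chromosome 9, 136494433 to 136546048) stood at 27.6, 25.5 and 29.7 CPM in treated libraries and at 39.4, 45.6 and 58.5 CPM in DMSO libraries, a log2 fold change of -0.79 ± 0.17 (SE). NOTCH2 (ENSG00000134250, chromosome 1, 119911553 to 120069662) stood at 51.4, 45.6 and 48.3 CPM in treated libraries and at 66.3, 70.5 and 77.7 CPM in DMSO libraries, a log2 fold change of -0.56 ± 0.12. Treated values were the lower ones without overlap for both receptors, and DMSO replicate 3 was the highest library for both. NOTCH2 has near-identical partial copies, the NOTCH2NL genes, of which NOTCH2NLA, NOTCH2NLB, NOTCH2NLC and NOTCH2NLR were listed at 0 in all libraries, so how reads were divided between them and NOTCH2 is uncertain. Within the NOTCH family, NOTCH1 held 46.4% ± 1.38 of the summed TPM with beta-sitosterol and 51.1% ± 3.10 with DMSO, and NOTCH2 held 46.5% ± 1.85 with beta-sitosterol and 44.1% ± 2.74 with DMSO (SD, n = 3 each).

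The nuclear partners of the receptor differed in how they varied. RBPJ (ENSG00000168214, chromosome 4, 26105449 to 26435131) stood at 60.96, 64.5 and 60.8 CPM in treated libraries and at 78.97, 97.7 and 56.6 CPM in DMSO libraries. The groups overlapped, since DMSO replicate 3 lay below the treated libraries, and the log2 fold change of -0.32 ± 0.19 (SE) did not pass. RBPJ was called lower without DMSO replicate 3 (log2 fold change -0.47). Pseudogene copies of RBPJ held 1 count in treated and 0 in DMSO libraries. SPEN (ENSG00000065526, chromosome 1, 15847707 to 15940456), a large RNA-binding corepressor, stood at 143, 143 and 149.96 CPM in treated libraries and at 213, 391 and 222 CPM in DMSO libraries. Its treated values were lower without overlap, and again DMSO replicate 2 was the highest. The log2 fold change was -0.92 ± 0.23, and -0.59 without DMSO replicate 2.

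NCSTN (ENSG00000162736, chromosome 1, 160343383 to 160358949) stood at 72.4, 81.1 and 78.8 CPM in treated libraries and at 72.1, 104.3 and 75.5 CPM in DMSO libraries. The groups overlapped, and the log2 fold change of -0.12 ± 0.16 (SE) did not pass. Without DMSO replicate 2 it was 0.065. In GENCODE v29, NCSTN overlaps the COPA gene on the opposite strand, which held 29532 summed counts in treated and 42799 in DMSO libraries, so reads from the stretch they share may belong to either, as no source used here says whether counting was by strand. Transcripts on the opposite strand are annotated within MAML2, MAML3, NOTCH1 and SPEN too.

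Of the target genes among the members, DTX1 was tested and HES1 was too low for the filter. DTX1 (ENSG00000135144, chromosome 12, 113056730 to 113098025) stood at 390, 378 and 390 CPM in treated libraries and at 1246, 1340 and 1542 CPM in DMSO libraries. The groups lay far apart, and neither held a library that stood alone. The means were 386 ± 7.27 CPM with beta-sitosterol and 1376 ± 151 CPM with DMSO (SD, n = 3 each), and the log2 fold change was -1.83 ± 0.12 (SE), a 3.56-fold lower level. By TPM, DTX1 was the 361st, 379th and 372nd most abundant gene in treated replicates 1, 2 and 3, and the 80th, 66th and 72nd in DMSO replicates 1, 2 and 3. HES1 (ENSG00000114315, chromosome 3, 194136148 to 194138732) had 14, 8 and 15 counts in treated libraries, 0.475, 0.303 and 0.545 CPM, and 0 counts in each DMSO library. A count of 0 allows up to 0.0298 CPM over the DMSO group (3 counts over the group). The treated level was 14.9-fold above that limit. This ratio takes the 37 treated counts as exact, so it leaves out their counting error and the spread between libraries. Of the 65746 genes, 47323 were at 0 in all libraries. At 0 in the 3 DMSO libraries, with at least 37 summed counts in treated libraries, were 15 genes, and 0 genes showed the converse. The cut-off of 37 is the number HES1 itself had, so nothing is read from these counts. HES1 was too low for the filter and was called higher where no filter was used. It was also called higher without beta-sitosterol replicate 2 or any 1 of the DMSO replicates, where it passed the filter. With 0 counts in each DMSO library, it passed there through the treated libraries alone, so a difference was built in. These calls are not read as a result.

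Per length, the members spanned a wide range. In treated libraries DTX1 led with 199 ± 5.08 TPM, followed by MAML1 (34.9 ± 1.52), SPEN (33.3 ± 0.65), NCSTN (20.2 ± 0.96), NOTCH2 (7.13 ± 0.51), NOTCH1 (7.13 ± 0.50), RBPJ (5.85 ± 0.21), MAML2 (2.82 ± 0.28), HES1 (0.656 ± 0.183) and MAML3 (0.145 ± 0.0447 TPM). MAML1 and SPEN overlapped in range there, as did NOTCH2 and NOTCH1. In DMSO libraries DTX1 led with 869 ± 245 TPM, followed by SPEN (72.6 ± 6.23), MAML1 (61.8 ± 10.3), NCSTN (25.8 ± 1.59), MAML2 (16.1 ± 2.51), NOTCH1 (15.2 ± 5.31), NOTCH2 (12.9 ± 3.37), RBPJ (8.62 ± 1.52) and MAML3 (0.0809 ± 0.0395 TPM), while HES1 was listed at 0. SPEN and MAML1 overlapped in range, as did MAML2 with NOTCH1, NOTCH1 with NOTCH2, and NOTCH2 with RBPJ. These ranges run across libraries whose deposited TPM summed to different totals. Within each DMSO library NOTCH1 lay above NOTCH2 and NOTCH2 above RBPJ. MAML2 thus stood in the range of the receptors in DMSO libraries and below them in treated libraries. The gene lengths behind the TPM values were uneven for a reading of this order. Scaled so that the median over tested genes equalled the exon length in GENCODE v29, the length behind RBPJ was 16.9 kb against 9.25 kb of annotated exon and that behind NCSTN 6.11 against 4.17 kb. For the other 6 tested members this length was 0.487 to 0.703 times the annotated one, so RBPJ and NCSTN are listed low relative to them.

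Long transcripts were lower with beta-sitosterol in general, and the members are mostly long. All tested genes were split by total exon length into 10 bins of like size, numbered 1 (shortest) to 10 (longest), and the median log2 fold change was 0.50 in bin 1 and -0.36 in bin 10. DMSO replicate 2 itself lay 0.16 log2 units above the DMSO mean in bin 10 (median deviation) and deviated by -0.26 in bin 1. SPEN and NOTCH2 are in bin 10, NOTCH1 and RBPJ in bin 9 (median log2 fold change -0.20), MAML2 in bin 8 (-0.18), MAML1 in bin 7 (-0.13) and NCSTN in bin 4 (0.0013). The part of length in these differences was not tested beyond the values that follow. DTX1, in bin 5, where the median was -0.020, and MAML2 lay farthest from the median of their bin. Trends on exon length and GC content were then removed from each library, an alternative chosen after seeing the data. The log2 fold changes became -2.15 for MAML2, -0.47 for NOTCH1, -1.83 for DTX1 and -0.27 for RBPJ, which were past the threshold, and -0.35 for MAML1, -0.50 for SPEN and -0.10 for NOTCH2, which were not. With DMSO replicate 2 left out as well, 6 members were past it, again without NOTCH2 (-0.15), and MAML2, MAML1, SPEN and DTX1 stood at -1.81, -0.20, -0.17 and -1.68. As the same comparison chose the members, these calls describe how the values move with the setting and support nothing further.

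**Figure D3:**
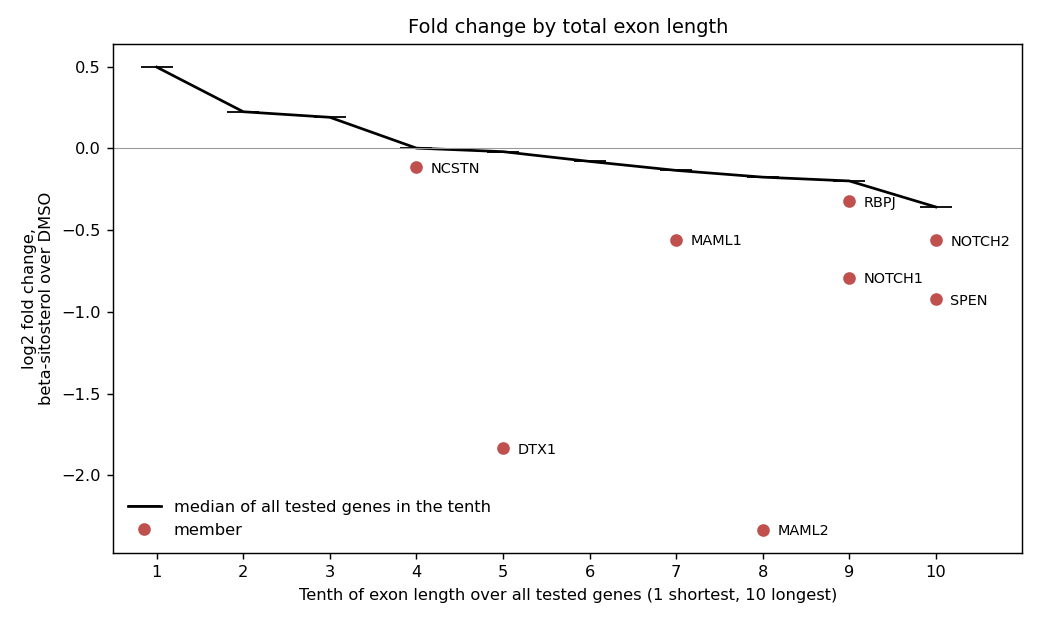
Red points plot the log2 fold change (beta-sitosterol over DMSO) of the 8 tested members against the exon-length bin (1 shortest, 10 longest) each falls in, and the black line joins the medians of all tested genes per bin. The median is 0.50 in bin 1 and -0.36 in bin 10, and MAML2 (-2.33) and DTX1 (-1.83) lie farthest below it.

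Of the 4 tested genes nearest to MAML2 1 passed the threshold, beside 40.8% of all tested genes. The 2 nearest tested genes on one side, MTMR2 and CEP57, had log2 fold changes of -0.36 ± 0.17 and -0.027 ± 0.19 (SE; edgeR adjusted p = 0.13 and 0.92). On the other side, CCDC82 stood at 0.13 ± 0.27 (edgeR adjusted p = 0.72), and JRKL fell by 0.52 ± 0.16 on the log2 scale (edgeR adjusted p = 0.028). The 2 nearest genes on either side of DTX1 were OAS2 and OAS3 (log2 fold changes -0.90 ± 0.13 and -0.17 ± 0.36; edgeR adjusted p = 0.0012 and 0.73) and RASAL1 and CFAP73 (-0.34 ± 0.29 and 0.19 ± 0.30; edgeR adjusted p = 0.38 and 0.65). Genes beside other members passed in both directions, and those named here are examples. With 40.8% of all tested genes past the threshold, nothing is read from calls of neighbours. SQSTM1, near MAML1, rose by 1.58 ± 0.15 on the log2 scale (edgeR adjusted p = 2.41e-04), and SEL1L3, near RBPJ, by 1.01 ± 0.12 (edgeR adjusted p = 4.85e-04). SEC16A, near NOTCH1, fell by 0.68 ± 0.11 (edgeR adjusted p = 0.0018), while AGPAT2, on the other side of NOTCH1, rose by 1.18 ± 0.22 (edgeR adjusted p = 0.0035). ZBTB17, 1.41 kb beyond SPEN, stood at 0.0083 ± 0.13 (edgeR adjusted p = 0.96), and none of the 4 neighbours of HES1 passed (log2 fold changes -0.34 to 0.18).

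Over the 6 libraries, the genes most like MAML2 in log2 CPM, of 8744 with a mean of at least 5 CPM, were GON4L, ZNF608, SH3KBP1, BAZ1B and HSPA8. Their Pearson correlations with it were 0.9990 to 0.9996, a description over 6 points in 2 groups. All of them were highest in DMSO replicate 2, as MAML2 was. The largest fall among them was that of ZNF608, a zinc finger protein gene, at a log2 fold change of -1.37, against -2.33 for MAML2.

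A wider list of 66 Notch pathway genes, ordered by role, gave the setting. It was drawn up from knowledge of the pathway, with the values of MYC and CR2 already known. Of these genes 4 were listed at 0 in all libraries (TLE5, HEYL, CD300A and IL2RA), on which no statement is made, 12 were below the filter and 50 were tested. With beta-sitosterol 12 were higher and 16 lower. That is 56.0% of those tested, against 40.8% of all tested genes (19.0% higher and 21.8% lower). NOTCH3, HEY2, TLE3 and SEMA7A are among these calls and passed the filter on low counts through 1 group alone. Nothing is therefore read from the count beside that background. The median log2 fold change was -0.056, against -0.039 over all. On log2(TPM + 1), where the median of all genes lay at -0.19, 5 were higher and 12 lower. Of all 11525 tested genes, 713 were higher and 2226 lower on that scale. Counts by role below rest on few genes, and nothing is read from them beside the 40.8% of all tested genes. Genes named below outside the naming rule (SEMA7A, CCND1, HDAC1, CTBP1, KDM1A and JAG1) were chosen after their values were seen.

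Among ligands and receptors, levels were low. Of 5 ligand genes 2 were tested. DLL1, a Delta-type ligand, rose to 2.38, 2.12 and 2.40 CPM in treated libraries, against 0.558, 0.690 and 0.750 CPM in DMSO libraries (log2 fold change 1.78 ± 0.24, edgeR adjusted p = 8.49e-04). JAG1, a Jagged-type ligand, averaged 0.340 ± 0.225 CPM with beta-sitosterol and 0.769 ± 0.177 CPM with DMSO and did not pass (edgeR adjusted p = 0.081). It had 4, 8 and 16 counts in treated libraries and passed the filter on low counts through the DMSO libraries. NOTCH3 fell to 0.256 ± 0.149 CPM with beta-sitosterol, against 0.999 ± 0.184 CPM with DMSO (SD, n = 3 each; log2 fold change -1.97, edgeR adjusted p = 0.0079). It had 3, 7 and 11 counts in treated libraries and passed the filter on low counts through the DMSO libraries, so a difference was built in, and it was not tested with a filter of 1 CPM in 3 libraries. NOTCH4 averaged 4.61 ± 0.34 CPM with beta-sitosterol and 3.97 ± 1.43 CPM with DMSO (edgeR adjusted p = 0.56). Both lie well below NOTCH1 and NOTCH2 per length, as the family shares show.

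The enzymes that modify and cut the receptors split. Among 5 glycosyltransferase genes 1 rose and 2 fell. The Fringe gene LFNG fell to 19.6, 18.6 and 16.1 CPM in treated libraries, against 46.0, 24.2 and 59.2 CPM in DMSO libraries (log2 fold change -1.25 ± 0.29, edgeR adjusted p = 0.0092). Its relative RFNG rose to 38.6, 35.2 and 36.9 CPM, against 16.3, 11.6 and 21.6 CPM with DMSO (log2 fold change 1.16 ± 0.21, edgeR adjusted p = 0.0034). POFUT1, which adds fucose to the receptors, fell by 0.36 ± 0.12 on the log2 scale (edgeR adjusted p = 0.035), a call lost when any 1 library other than DMSO replicate 2 was left out, with RLE factors, with no filter, on both TPM scales and with the length and GC trends removed. LFNG and RFNG did not pass on log2(TPM + 1), at -1.29 and 0.79, or on log2(TPM + 0.1). Among 7 protease genes 2 rose and 0 fell (28.6%, beside 40.8% of all tested genes). FURIN, the convertase that matures the receptor, rose to 3.91 ± 0.49 CPM with beta-sitosterol, against 1.53 ± 0.26 CPM with DMSO (edgeR adjusted p = 0.0020). PSENEN, a small gamma-secretase subunit, rose to 9.72 ± 0.31 CPM, against 3.99 ± 1.28 CPM with DMSO (edgeR adjusted p = 0.0038), and did not pass on either TPM scale. It is in exon-length bin 1, where 38.4% of all tested genes were higher and 7.90% lower. Its log2 fold change of 1.28 became 0.88 with the length and GC trends removed, where it still passed. PSEN2, a catalytic subunit gene, had a log2 fold change of 0.45 ± 0.20 and did not pass (edgeR adjusted p = 0.10). Nor did the sheddase genes ADAM10 and ADAM17 pass, at -0.38 ± 0.16 and -0.066 ± 0.13 (edgeR adjusted p = 0.092 and 0.71).

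Of 9 tested genes for trafficking and ubiquitin ligases 1 rose and 3 fell (44.4%, beside 40.8% of all tested genes). MIB2, a ligase for Notch ligands, rose to 75.4 ± 3.22 CPM with beta-sitosterol, against 41.2 ± 9.41 CPM with DMSO (edgeR adjusted p = 0.0042), and did not pass on either TPM scale (log2 fold change 0.49 on log2(TPM + 1)). NUMB, an inhibitor of Notch, fell to 24.2 ± 0.63 CPM, against 48.0 ± 15.0 CPM with DMSO (edgeR adjusted p = 0.0062), with DMSO replicate 2 highest at 65.1 CPM. DTX2, a relative of DTX1, and FBXW7, which marks the active receptor for degradation, fell by 0.51 ± 0.16 and 0.42 ± 0.13 on the log2 scale (edgeR adjusted p = 0.032 and 0.036). Both missed the threshold without any 1 of the treated replicates and with the length and GC trends removed (-0.44 for DTX2 and -0.11 for FBXW7). DTX2 also missed it without DMSO replicate 3, and FBXW7 without DMSO replicate 1 and with no filter.

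EP300, CREBBP, NCOR1 and KMT2D, cofactors that act in the nucleus, are in exon-length bin 10, where 39.8% of all tested genes were lower with beta-sitosterol and 7.81% higher. Of 7 coactivator genes 1 rose and 3 fell (57.1%, beside 40.8% of all tested genes). The acetyltransferase gene EP300 fell to 102.9, 99.4 and 101.6 CPM in treated libraries, against 168, 320 and 196 CPM in DMSO libraries (log2 fold change -1.17 ± 0.22, edgeR adjusted p = 0.0040). Its paralogue CREBBP fell to 104.5, 103.98 and 111.6 CPM, against 188, 337 and 221 CPM with DMSO (log2 fold change -1.22 ± 0.21, edgeR adjusted p = 0.0023). In both, DMSO replicate 2 was the highest library. CDK8, a kinase that acts on the active receptor, fell by 0.66 ± 0.12 on the log2 scale (edgeR adjusted p = 0.0033), and SNW1 rose by 0.53 ± 0.16 (edgeR adjusted p = 0.031). Of 12 tested genes listed with the corepressors 5 fell (NCOR1, TLE4, KMT2D, CTBP1 and KDM1A) and 2 rose (HDAC1 and TLE3). That is 58.3%, beside 40.8% of all tested genes. KMT2D is in that list through its link to SPEN and is not itself a corepressor. The calls of HDAC1 and KDM1A were lost without any 1 of the treated replicates or DMSO replicate 1 and on both TPM scales, that of CTBP1 on both TPM scales, and that of KDM1A also without DMSO replicate 3, with RLE factors, with no filter and with the length and GC trends removed. The nuclear receptor corepressor gene NCOR1 fell by 0.85 ± 0.18 on the log2 scale (edgeR adjusted p = 0.0065) and the Groucho-type gene TLE4 by 1.10 ± 0.16 (edgeR adjusted p = 0.0012). The histone methyltransferase gene KMT2D, listed here because its complex meets SPEN at RBPJ, fell to 357, 333 and 365 CPM, against 788, 1060.3 and 934 CPM with DMSO (log2 fold change -1.40 ± 0.13, edgeR adjusted p = 2.38e-04). TLE3, another Groucho-type gene, had 10, 11 and 16 counts in treated libraries and 3, 0 and 0 counts in DMSO libraries (edgeR adjusted p = 0.0070), and did not pass on either TPM scale. It passed the filter through the treated libraries alone, so a difference was built in, and its place in the count is not read as a result. The ratio of its summed, library-scaled counts, 14.9 in favour of beta-sitosterol, had a 95% exact counting interval of 4.71 to 75.4. With the length and GC trends removed, EP300, CREBBP, NCOR1 and KMT2D still passed, at log2 fold changes of -0.76, -0.76, -0.45 and -0.87. SNW1 (0.14) did not pass there, nor on either TPM scale (0.29 on both), nor without any 1 of the treated replicates or DMSO replicate 1. With the trends removed and DMSO replicate 2 left out, EP300, CREBBP and NCOR1 passed at smaller log2 fold changes of -0.44, -0.43 and -0.31.

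Of 14 further target genes 6 were tested, and all 6 passed, in both directions, beside 40.8% of all tested genes. HEY2, a repressor related to the HES family, fell to 0.295 ± 0.126 CPM with beta-sitosterol, against 1.65 ± 0.456 CPM with DMSO (SD, n = 3 each; log2 fold change -2.45, edgeR adjusted p = 0.0016). MYC, a Notch target in lymphoid tumours, fell to 177, 186 and 197 CPM in treated libraries, against 407, 724 and 476 CPM in DMSO libraries (edgeR adjusted p = 8.74e-04). HES7 rose to 2.49 ± 0.24 CPM, against 0.807 ± 0.1002 CPM with DMSO (log2 fold change 1.62, edgeR adjusted p = 0.0011). It is in exon-length bin 1, where the median log2 fold change of all tested genes was 0.50. CR2, the complement receptor of B cells, rose to 4.002 ± 0.550 CPM, against 1.105 ± 0.113 CPM with DMSO (log2 fold change 1.85, edgeR adjusted p = 4.82e-04). SEMA7A and CCND1 were also higher, at log2 fold changes of 2.10 and 1.03 (edgeR adjusted p = 0.010 and 0.046), and the call of CCND1 was lost without any 1 library other than DMSO replicate 3, by limma-voom and on both TPM scales. HEY2 had 13, 6 and 6 counts in treated libraries and passed the filter on low counts through the DMSO libraries. SEMA7A had 6, 2 and 8 counts in DMSO libraries and passed it through the treated libraries. A target that passed the filter through 1 group alone had to differ, so their calls and the count of 6 are not read as results.

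**Figure D4:**
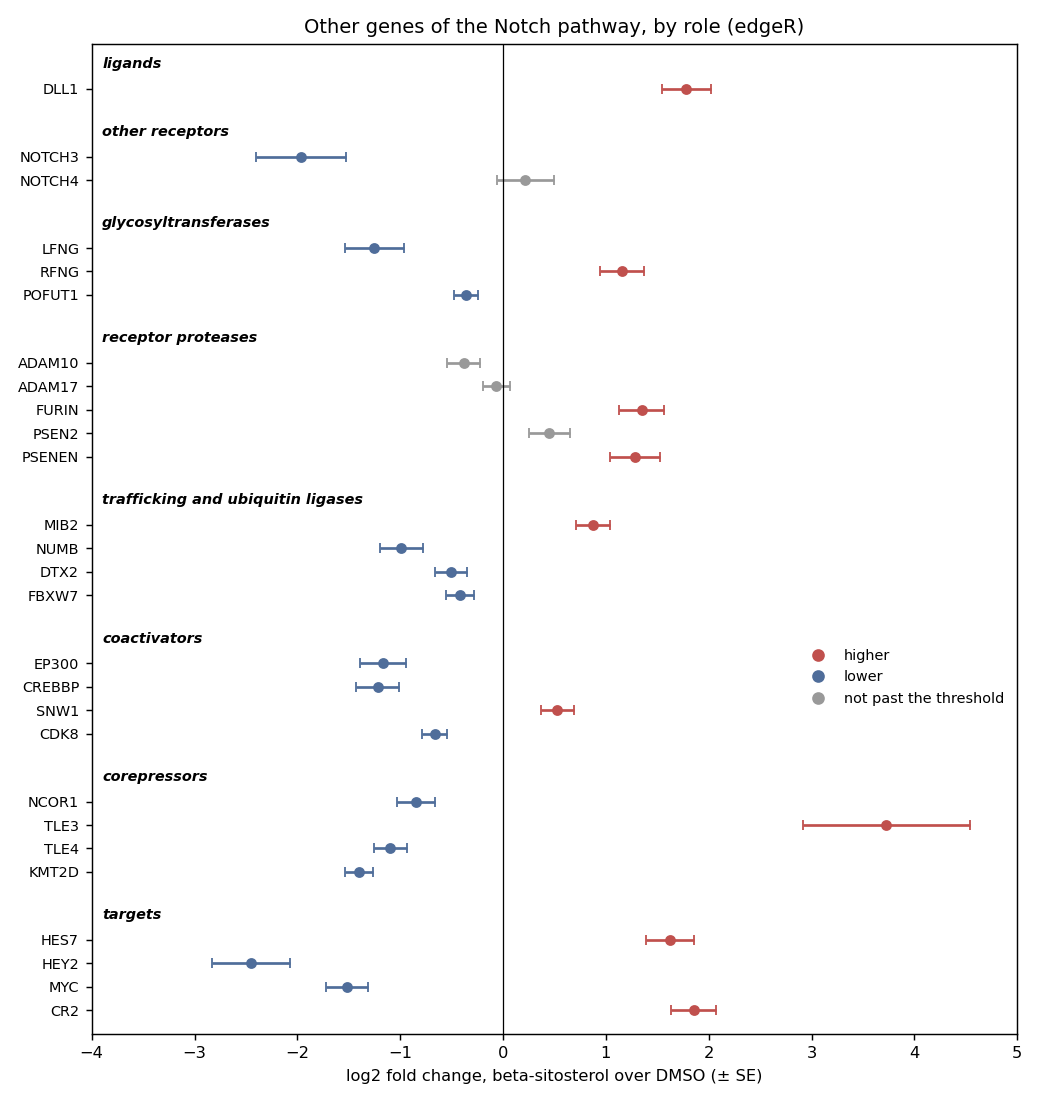
Points plot the log2 fold change (beta-sitosterol over DMSO) with its SE for the Notch pathway genes named by rule, grouped by role down the page; red is higher, blue lower and grey not past the edgeR threshold. EP300, CREBBP, NCOR1, TLE4 and KMT2D all lie left of 0, while targets lie on both sides, with HEY2 at -2.45 and CR2 at 1.85. KMT2D is plotted with the corepressors through its link to SPEN and is not itself one. HEY2 and TLE3 passed the filter on low counts through 1 group alone. The fitted value of TLE3 rests on 3 DMSO counts and depends on the prior count.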

How the data were processed

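Counts and TPM for 3 beta-sitosterol and 3 DMSO libraries were used as deposited. Deposited counts are whole numbers of reads for each gene. Deposited TPM values are the authors' own scaling by gene length and library. Per the submitters' processing notes, GRCh38 was the build and the tools were STAR 2.7.10, fastp 0.23.2, StringTie 2.2.1 and featureCounts 2.0.1, with no role stated. Whether counting used strand, and with which annotation, is not stated there. Deposited TPM summed to 39.5% of a full total in DMSO replicate 2 and to 57.0% to 69.2% in the others. Of 65807 rows, 61 repeated symbols were dropped. Counts were tested in R 4.3.3 with edgeR 4.0.16 (quasi-likelihood F test, TMM, filterByExpr, treatment the only term, two-sided, Benjamini-Hochberg over all 11525 genes tested, threshold 0.05) and checked on simulated data. The simulation gave both groups the same spread for each gene. In these data the median SD of log2 CPM was 0.0862 with beta-sitosterol and 0.275 with DMSO. The simulation therefore does not check the test under this unequal spread. SE was derived from the F statistic as |log2 fold change|/√F. Nothing says that replicates came from separate cultures, so p-values measure only the spread between these samples. Members, lists and tests were chosen with earlier results of these data known. Genes were named by rule: all members, up to 4 genes per role past the threshold with the smallest p, 13 fixed genes, neighbours of members and the 5 genes most correlated with MAML2. Positions are RefSeq GRCh38.p14 by symbol; lengths and GC are GENCODE v29. Alternatives used DESeq2 1.42.0, limma 3.58.1 (voom, or trend on log2 TPM), other scalings and filters, a replicate block and each library left out. Counting intervals and limits from a count of 0 cover counting error only. A few list and marker genes are not reported here and were left out of the list counts and marker sums.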

Additional observations from a re-analysis of the deposited data

How the results depend on the processing

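The count of 6 members called, all lower, was the same with RLE factors, library totals, a filter of 1 CPM in 3 libraries, DESeq2, limma-voom and both TPM scales; it was 7 with no filter, HES1 being the added call, and 4 with length and GC trends removed. Leaving out 1 library gave 6 to 8 members and 21 to 33 of the wider list, of which 28 were called in the full fit. On log2(TPM + 1) and log2(TPM + 0.1) 17 and 18 of the list were called; the cause was not tested. With the replicate number as a block, 6 members and 24 list genes were called, without POFUT1, FBXW7, KDM1A and CCND1; same-numbered libraries deviated together at correlations of 0.039, 0.101 and 0.154, so the numbers were not taken as pairing the samples, though each library correlated best with its own number. Over all genes, 4697 were called, against 2939 and 2935 on the TPM scales, 3127 and 3094 without beta-sitosterol replicates 1 and 2, and 7488 with trends removed and DMSO replicate 2 left out. Of the log2 fold changes of named genes, 533 values kept direction and call, 46 lost and 9 gained a call. The 5 that changed sign were uncalled in the full fit. NCSTN lay between -0.22 and 0.065 with 1 library left out, positive without DMSO replicate 2, and at 0.10 with trends removed as well. NOTCH4 lay between -0.058 and 0.43 with 1 library left out, negative without DMSO replicate 2, and at -0.035 on log2(TPM + 1). ADAM17 was at 0.019 with trends removed. Low counts limit MAML3, HES1 and most ligands and targets.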
